A study of Mus musculus with 6 samples.

Results

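Pancreatic islets lie embedded in exocrine tissue, and the 6 islet libraries of this study differed in how much exocrine RNA they held. The 3 libraries with the largest share of counts on acinar digestive enzymes (FXR-/- male 2, FXR+/+ male 1 and FXR-/- male 1, here the high exocrine libraries) were set against the 3 with the smallest share (FXR+/+ male 2, FXR+/+ female 1 and FXR-/- female 1, the low exocrine libraries). The groups were selected on the measured enzyme counts themselves, led by *Ctrb1*, *Prss2*, *Cpa1* and *Pnlip*. Every difference between high and low libraries is therefore a description and carries no test, while genotype and sex, which come from the labels, were tested.

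The islets came from 3-month-old mice that were either wild-type (FXR+/+) or knockout for the farnesoid X receptor (FXR-/-), the bile acid receptor encoded by *Nr1h4*, on a C57Bl/6 background, and were released from the pancreas with collagenase P. Each genotype had 1 female and 2 males, and the mRNA was enriched with oligo(dT) before sequencing. Whether a library holds the islets of 1 mouse or of several is not stated, so p-values measure the spread between these libraries. The high group held 1 FXR+/+ and 2 FXR-/- libraries, all male, and the low group held 2 FXR+/+ and 1 FXR-/- library, of which 1 was male. Both females were low, so sex and exocrine group coincided in part.

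The acinar cell makes and stores digestive enzymes as zymogens, under the transcription factor complex that holds PTF1A and RBPJL, and releases them into the ducts. Islet endocrine cells make insulin (beta cells), glucagon (alpha cells), somatostatin (delta cells) and pancreatic polypeptide (PP cells). Islets freed with collagenase usually carry along some acinar and duct cells, and acinar enzyme mRNAs are so abundant that a small amount of tissue can take a visible share of the reads. In bulk RNA, fewer cells of a type and less RNA per cell cannot be told apart.

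The libraries held 20629306 to 30139235 gene counts. The 27 acinar enzyme genes counted took 5.18% of them in FXR+/+ male 2, 5.85% in FXR+/+ female 1 and 7.49% in FXR-/- female 1, against 9.4% in FXR-/- male 2, 14.4% in FXR+/+ male 1 and 15% in FXR-/- male 1. The libraries just inside and just outside the high group, FXR-/- male 2 and FXR-/- female 1, were thus 9.4% and 7.49%, and the order is closer to a gradient than to 2 separate clusters. In the deposited exon counts, of which the enzymes took 0.726% to 2.45%, the libraries stood in the same order. The targeted gene went with the labels, since *Nr1h4* was at 12.2 to 14.2 CPM (counts per 1000000 of the normalized library size) in the FXR+/+ libraries and at 5.67 to 7.63 in the FXR-/- libraries.

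By the labels, the differences in acinar share between the genotypes and between the sexes did not pass a test. It was 8.49% ± 5.16 (SD, n = 3) in FXR+/+ and 10.6% ± 3.91 (n = 3) in FXR-/- islets, a difference of 2.15 percentage points (two-sided exact permutation test, p = 0.5, where 0.1 is the smallest p that 3 against 3 libraries allow). Within the same-numbered pairs the FXR-/- library was the higher in 3 of 3, by 1.64, 0.585 and 4.22 points (two-sided exact paired permutation test by sign flips, chosen after seeing the data, p = 0.25, the smallest that 3 pairs allow). It was 6.67% ± 1.16 (n = 2) in females and 11% ± 4.63 (n = 4) in males, a difference of 4.34 points (exact permutation test, p = 0.267, smallest possible 0.0667). The males spanned 5.18% to 15% and so lay on both sides of the 2 females.

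Below, each gene is given in CPM in the order of rising acinar share, with the low libraries FXR+/+ male 2, FXR+/+ female 1 and FXR-/- female 1 before the high libraries FXR-/- male 2, FXR+/+ male 1 and FXR-/- male 1. A gene is called apart where all 3 high libraries lay above, or all 3 below, the 3 low ones. Over all 14619 genes tested, 1597 (10.9%) were apart and higher in the high exocrine libraries and 1716 (11.7%) apart and lower. Apart by at least 2-fold, after a term for genotype, were 189 genes (1.29%) on the higher side and 26 (0.178%) on the lower, so the large differences lay mostly on the higher side. On total counts alone, without the correction for composition, the split was 98 higher and 56 lower and the median of all genes moved from 0.01 to -0.17.

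The digestive enzymes, which the choice of libraries used, were mostly higher by a like factor, with the amylases the exception among the classes. Of 27 enzyme genes, 23 were apart and higher and 21 of them by at least 2-fold, with a median log2 difference of 1.18. Chymotrypsinogen B (*Ctrb1*), the most abundant, was at 10216, 11455 and 16103 CPM in the low libraries and at 20705, 34263 and 36694 in the high ones. The trypsinogen *Prss2* was at 2564, 3078 and 3647 CPM against 5057, 7854 and 9450. Both rose without a break along the order of the acinar share, and their fitted fold, high over low with a term for genotype, was 2.37 and 2.35.

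The elastase *Cela2a* was at 5314, 6666 and 7456 CPM in the low libraries and at 12327, 16648 and 20537 in the high ones. Carboxypeptidase A1 (*Cpa1*), which trims amino acids from the end of peptides, was at 2525, 2969 and 4067 CPM against 5568, 7887 and 9095. Pancreatic lipase (*Pnlip*) was at 5337, 5762 and 6794 CPM against 9950, 15003 and 15876. The median log2 differences were alike, at 1.24 over 14 serine proteases, 1.15 over 3 carboxypeptidases and 1.22 over 6 lipases and their cofactors. The ribonuclease *Rnase1* had 1.15. Among the serine proteases, *Ctrc* and *Cela3a* overlapped between the high and low libraries. The 3 amylases had a median of 0.53, from -1.24 for *Amy2b* to 1.13 for *Amy2a5*. In the exon counts the high and low libraries stayed apart for *Ctrb1*, with 3339, 2251 and 4198 counts against 7806, 11028 and 12097. *Cela2a* did not repeat its order there, with 241, 172 and 244 exon counts against 201, 156 and 82. These are very few beside its 156405 to 390484 gene counts. The exon counts are also not scaled, while the exon totals of the libraries ran from 6828839 to 11031678. The order of *Cela2a* in them is therefore not read. FXR-/- male 1, the highest library for *Cela2a* in the gene counts, had its lowest exon count. Per kilobase of transcript, *Ctrb1* led with 24570 CPM averaged over the libraries, followed by *Cela2a* with 10740, *Pnlip* with 6582 and *Prss2* with 6473.

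The make-up of the enzyme RNA in the gene counts, which the choice of libraries did not use, was nearly constant. The exon counts of *Ctrb1* and *Cela2a* given above did not keep a fixed ratio, but those of *Cela2a* were too few to read one. For 22 of the 27 enzymes, with 99.6% of the acinar counts, the ratio to all other enzymes varied by less than 2-fold over the 6 libraries, and the median SD of its log2 was 0.103. *Ctrb1* took 20.7% to 23.2% of the acinar counts in each library. *Cela2a* took 10.7% to 12.4%, and *Pnlip* 9.43% to 10.8%. The high and low libraries overlapped in the shares of all 3 genes. The bile salt-stimulated lipase *Cel* took 6.4% to 6.54% in the low and 6.76% to 6.92% in the high libraries, which did not overlap but lay close.

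The other 5 enzymes did not keep their ratio. The trypsinogen *Prss3* was at 93.7, 34.8 and 56.1 CPM in the low libraries and at 457, 248 and 548 in the high ones, a log2 difference of 2.55 that was more than that of the enzymes around it. As a share of acinar counts it was 0.0637% and 0.0806% in the 2 females and 0.168% to 0.458% in the 4 males, so here the low male FXR+/+ male 2 went with the males and not with the low libraries. The trypsinogen *Prss1*, a minor transcript at 2.87, 0.426 and 1.74 CPM against 6.77, 7.04 and 10.8, had the same female to male order in its share. Both lie in the trypsinogen cluster of chromosome 6 (GRCm38; *Prss3* at chr6:41373759-41377613, *Prss1* at chr6:41458930-41463786), where near-identical copies can share reads and single values are uncertain.

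*Ctrc* and *Amy2b* ran against the other enzymes. *Ctrc*, which encodes chymotrypsin C, was at 60.9, 15.5 and 115 CPM in the low libraries and at 35.2, 42 and 58.9 in the high ones, for a log2 difference of -0.59. The amylase *Amy2b* was at 112, 17.4 and 83.7 CPM against 37.3, 29.6 and 28, a log2 difference of -1.24. In both genes FXR+/+ male 2 and FXR-/- female 1 were the highest libraries, while FXR+/+ female 1, equally poor in acinar RNA, was the lowest. In the exon counts *Ctrc* did not repeat this order, with 89, 49 and 75 against 104, 67 and 36 counts. FXR+/+ male 2 and FXR-/- female 1 were again the highest for *Amy2b*, with 144, 68 and 162 against 78, 56 and 61. These exon counts are few and not scaled to the size of the libraries. The amylases are a family of near-identical copies, and 4 of the 31 enzymes listed (*Amy2a1* to *Amy2a4*) had no row.

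The proximal promoters of the enzyme genes are shown because these genes moved together. The sequences are the 250 bases before the annotated start (RefSeq, GRCm38.p6), printed 5′ to 3′ on the strand of the gene, for the 4 genes that marked the groups and for *Prss3* and *Amy2b*, which departed from them. Capitals mark TTTCCC and CACCTG on either strand (GGGAAA and CAGGTG on the other), which are letters of the bipartite PTF1 site.
Ctrb1 (chr8:111691011-111691260, minus strand): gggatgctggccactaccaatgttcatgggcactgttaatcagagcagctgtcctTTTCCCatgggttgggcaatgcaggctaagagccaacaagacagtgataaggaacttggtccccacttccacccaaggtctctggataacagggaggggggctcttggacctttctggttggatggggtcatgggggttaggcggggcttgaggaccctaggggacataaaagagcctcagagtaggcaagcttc
Cpa1 (chr6:30638968-30639217, plus strand): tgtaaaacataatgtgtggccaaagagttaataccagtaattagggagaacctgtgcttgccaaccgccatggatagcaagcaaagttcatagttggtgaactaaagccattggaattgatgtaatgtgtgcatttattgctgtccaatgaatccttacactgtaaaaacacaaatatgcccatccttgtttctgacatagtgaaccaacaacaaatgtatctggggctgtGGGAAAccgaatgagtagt
Pnlip (chr19:58670115-58670364, plus strand): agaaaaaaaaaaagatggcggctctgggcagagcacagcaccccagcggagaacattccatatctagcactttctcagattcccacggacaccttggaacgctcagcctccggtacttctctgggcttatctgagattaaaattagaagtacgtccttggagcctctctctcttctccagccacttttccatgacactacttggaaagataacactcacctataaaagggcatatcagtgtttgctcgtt
Prss2 (chr6:41521526-41521775, plus strand): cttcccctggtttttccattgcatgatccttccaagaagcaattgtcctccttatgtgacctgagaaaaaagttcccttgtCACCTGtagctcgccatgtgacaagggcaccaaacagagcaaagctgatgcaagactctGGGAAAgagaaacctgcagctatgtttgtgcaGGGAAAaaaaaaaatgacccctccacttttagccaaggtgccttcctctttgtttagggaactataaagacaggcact
Prss3 (chr6:41377614-41377863, minus strand): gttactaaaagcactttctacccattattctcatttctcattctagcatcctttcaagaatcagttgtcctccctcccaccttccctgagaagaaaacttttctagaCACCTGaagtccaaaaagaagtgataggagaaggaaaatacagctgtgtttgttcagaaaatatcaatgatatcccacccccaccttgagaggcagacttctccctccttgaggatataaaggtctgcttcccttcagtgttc
Amy2b (chr3:113156728-113156977, minus strand): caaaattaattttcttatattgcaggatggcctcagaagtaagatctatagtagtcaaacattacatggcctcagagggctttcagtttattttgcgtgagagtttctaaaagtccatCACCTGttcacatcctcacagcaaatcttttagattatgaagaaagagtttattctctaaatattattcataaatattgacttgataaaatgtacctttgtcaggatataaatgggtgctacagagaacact

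Of the 27 enzyme genes, 22 had a promoter in the RefSeq table. CACCTG, on either strand, stood in 14 of the 22 (63.6%), against 17.1% of all 27025 promoters and 15.9% of the 11067 promoters of tested genes. TTTCCC was in 8 (36.4%) against 21.9% of all, and its longer form TGGGAAA, which TTTCCC includes, in 6 (27.3%) against 6.79%. A CANNTG, which includes every CACCTG, together with a TTTCCC was in 8 (36.4%) against 14.1%. Among the genes shown, *Ctrb1* holds 1 TTTCCC, *Prss2* holds 2 and 1 CACCTG, *Cpa1* holds 1 TTTCCC, and *Pnlip* holds neither. *Prss3* and *Amy2b* hold 1 CACCTG each and no TTTCCC. The motif that *Prss3* and *Amy2b* hold was also in *Prss1* and *Cela3a*, the other departing enzymes with a promoter. Among the enzymes that kept their ratio it was in some, such as *Prss2* and *Cel*, and absent from others, such as *Ctrb1* and *Cpa1*. Whether the motifs differed between the enzymes that kept their ratio and those that did not was not tested. A match is a description of letters only.

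The zymogen granule proteins and inhibitors followed the enzymes with no exception. All 8 were apart and higher, 6 of them by at least 2-fold, with a median log2 difference of 1.12 and a range of 0.94 to 1.32. The trypsin inhibitor *Spink1* was at 73.7, 89.4 and 105 CPM in the low libraries and at 138, 224 and 292 in the high ones. The granule protein syncollin (*Sycn*) was at 329, 541 and 657 CPM against 793, 1192 and 1617. Neither gene was part of the rule, and both kept the order of the acinar share.

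Regulatory genes of the acinar cell split. *Ptf1a* was at 1.83, 3.24 and 4.01 CPM in the low libraries and at 5.68, 7.29 and 7.68 in the high ones (log2 difference 1.14), and its partner *Rbpjl* at 9.56, 7.93 and 14.6 against 17, 30.2 and 33.2 (1.28). *Nr5a2* and *Gata4*, nuclear factors of acinar and other foregut cells, were apart as well, with log2 differences of 1.08 and 0.94. For *Nr5a2* the groups nearly touched, at 2.49, 1.88 and 2.59 CPM against 2.61, 6.84 and 4.47. *Bhlha15* (MIST1), a factor of secretory cells, was not apart, at 86.5, 67.9 and 49.1 CPM against 83.9, 77.2 and 83.9. *Gata6* was not apart either (0.24), so that 4 of 6 factors were apart and higher. The median of the 6 factors was 1.01. It was 0.63 without FXR+/+ male 1, 1.44 without FXR-/- female 1 and 0.29 with a replicate block.

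Acinar genes whose products are not secreted into the juice had 9 of 10 apart and a smaller median, 0.89. They ranged from 0.44 for *Gatm* to 1.97 for *Aqp8*, so the smaller factor did not hold for each gene. The cholecystokinin receptor *Cckar* was at 18.7, 20.7 and 23.9 CPM in the low libraries and at 28.5, 45 and 46.9 in the high ones. The water channel *Aqp8* was at 0.537, 0.511 and 0.932 CPM against 1.85, 3.12 and 2.79, a low level. *Gatm*, an enzyme of creatine synthesis that other cells use as well, was the member that was not apart (54.4, 50.8 and 46.3 against 52.2, 76.1 and 65.7).

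Of the REG family of secreted lectins, which rise in injured and inflamed pancreas, only part followed. *Reg1* was at 621, 715 and 996 CPM in the low libraries and at 1155, 1626 and 1872 in the high ones, and *Reg2* and *Reg3d* were apart too. *Reg3b* was at 32.6, 95.2 and 179 CPM against 86.3, 168 and 142, so that the low library FXR-/- female 1 was the highest of the 6. *Reg3a* and *Reg3g* were not apart. The family's median log2 difference was 0.80, but within the FXR-/- libraries it was -0.15 and within the FXR+/+ libraries 1.49.

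The duct cell, the other main exocrine cell type, did not follow to the same extent. Of 11 ductal genes tested, 3 were apart and higher (*Krt8*, *Krt18* and *Muc1*), beside 10.9% of all genes, and the median was 0.59. It was 0.14 without FXR+/+ male 1, 0.38 without FXR+/+ female 1, 0.18 in the FXR-/- libraries alone, and 0.25 with at least 10 counts in every library or with a replicate block. The keratin *Krt8* was at 117, 124 and 108 CPM in the low libraries and at 135, 186 and 233 in the high ones. The mucin *Muc1*, which acinar cells also make, was at 8.46, 10.4 and 17 CPM against 19.3, 30.9 and 25.8. The duct marker *Krt19* was at 2.75, 4.65 and 5.39 CPM against 3.96, 3.02 and 6.05, and *Cftr*, the chloride channel of ducts, was under the filter on low counts.

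**Figure D1:**
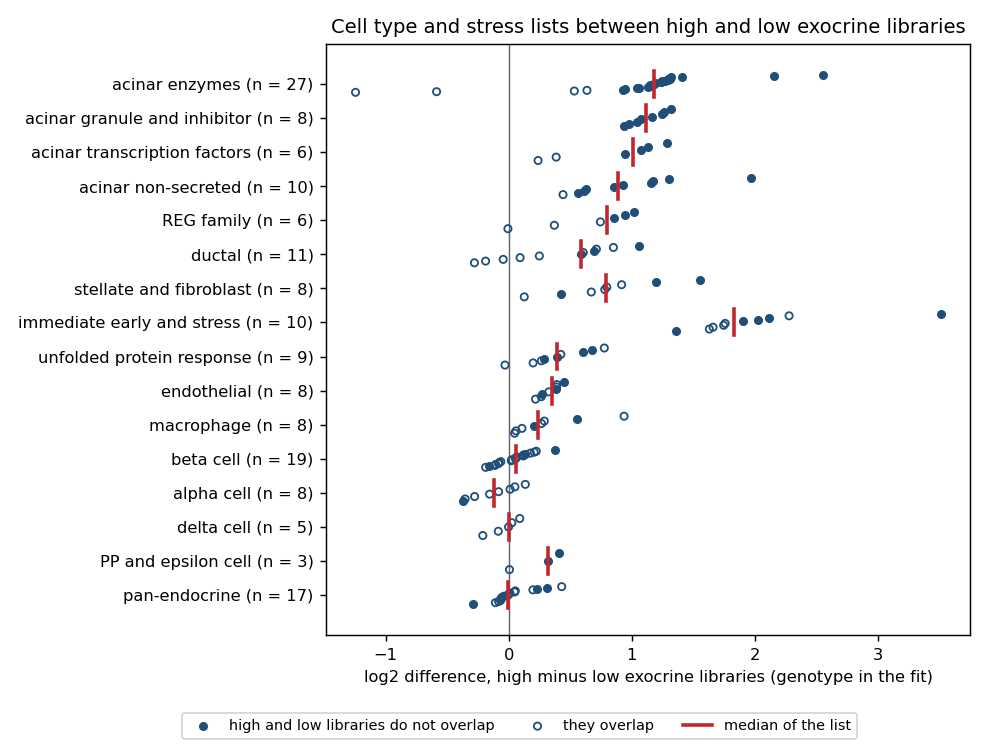
log2 difference, high minus low exocrine libraries, of each tested gene in 16 lists; each point is 1 gene, filled where the 3 high and 3 low libraries do not overlap, and red bars are list medians. Acinar lists have medians of 0.89 to 1.18, the REG family 0.80, immediate early and stress genes 1.83, and beta, alpha, delta and pan-endocrine lists -0.12 to 0.06.

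Endocrine genes barely moved against the exocrine content. Of 19 beta cell genes, 2 were apart and higher (*Nkx6-1* and *Abcc8*) and 1 apart and lower (*Slc30a8*), a share near that of all genes, and the median was 0.06. Insulin 2 (*Ins2*) was at 156034, 134603 and 132377 CPM in the low libraries and at 199905, 146173 and 159270 in the high ones. Insulin 1 (*Ins1*) was at 54075, 40990 and 38743 CPM against 53032, 32792 and 49733. Both overlapped in the gene counts. The insulin genes together took 17.5% to 23.9% of the counts, lowest in FXR+/+ male 1 and highest in FXR-/- male 2, both high exocrine libraries. In a fit on the exon counts the log2 difference of *Ins2* was 0.71, against 0.22 in the gene counts, and the beta cell median was 0.11.

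The beta cell genes that were apart differed by little. *Slc30a8*, the zinc transporter of the insulin granule, was at 896, 969 and 896 CPM in the low libraries and at 866, 834 and 738 in the high ones (log2 difference -0.16). *Nkx6-1*, a beta cell transcription factor, was at 282, 311 and 369 CPM against 453, 399 and 471 (0.38). *Abcc8*, the sulfonylurea receptor subunit of the ATP-sensitive potassium channel, had a difference of 0.13. *Mafa*, *Pdx1*, *Slc2a2* and *Glp1r*, which serve beta cell identity, glucose uptake and incretin response, all overlapped, with differences of -0.19 to 0.12.

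Alpha cell genes were the nearest to a group that ran the other way, yet only *Slc7a2* of 8 was apart. That share is near the 11.7% of all genes that were apart and lower. *Slc7a2*, an arginine transporter, was at 520, 618 and 599 CPM in the low libraries and at 422, 486 and 417 in the high ones (log2 difference -0.37). Glucagon (*Gcg*) was at 20218, 35191 and 35866 CPM against 24995, 25748 and 27563. The 2 females had the highest *Gcg* and FXR+/+ male 2 the lowest, so that all 3 high libraries lay between the low ones. The list median was -0.12 over the 6 libraries and 0.47 among the 4 males, where 3 high libraries stand against FXR+/+ male 2 alone, and the direction of the alpha cell genes therefore depended on which low library was used.

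Of the delta cell genes 0 of 5 were apart (median 0.00). With 10.9% of all genes apart and higher and 11.7% apart and lower, that count of 0 is not read as a result. Somatostatin (*Sst*) was at 2954, 4943 and 4001 CPM in the low libraries and at 4125, 3750 and 5416 in the high ones. Of the PP cell hormones, pancreatic polypeptide (*Ppy*) was at 2448, 2656 and 2754 CPM against 3742, 3182 and 4063, and peptide YY (*Pyy*) at 1022, 1261 and 1125 against 1446, 1369 and 1484. Both were apart and higher, by 0.41 and 0.32 on the log2 scale, less than any of the 22 enzymes that kept their ratio (0.53 to 1.40). In a fit on the exon counts *Ppy* differed by 0.77, and the list of PP cell hormones and ghrelin had a median of 0.96, against 0.32 in the gene counts. Ghrelin (*Ghrl*) overlapped at 1.84 to 3.28 CPM.

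Genes shared by all endocrine cells stayed level, with a median of -0.01 over 17 genes, of which 2 were apart and higher (*Pcsk1n* and *Insm1*) and 1 lower. Over all genes 10.9% were apart and higher and 11.7% apart and lower. Chromogranin A (*Chga*) was at 11684, 12007 and 11626 CPM in the low libraries and at 11775, 10044 and 12694 in the high ones. *Rfx6*, a transcription factor of endocrine cells, was the gene that was lower, at 149, 176 and 171 CPM against 145, 139 and 125 (-0.29). These values are relative to a normalized library size that the enzymes scarcely enter; on total counts alone the median of all genes was -0.17 and that of the beta cell genes -0.12.

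**Figure D2:**
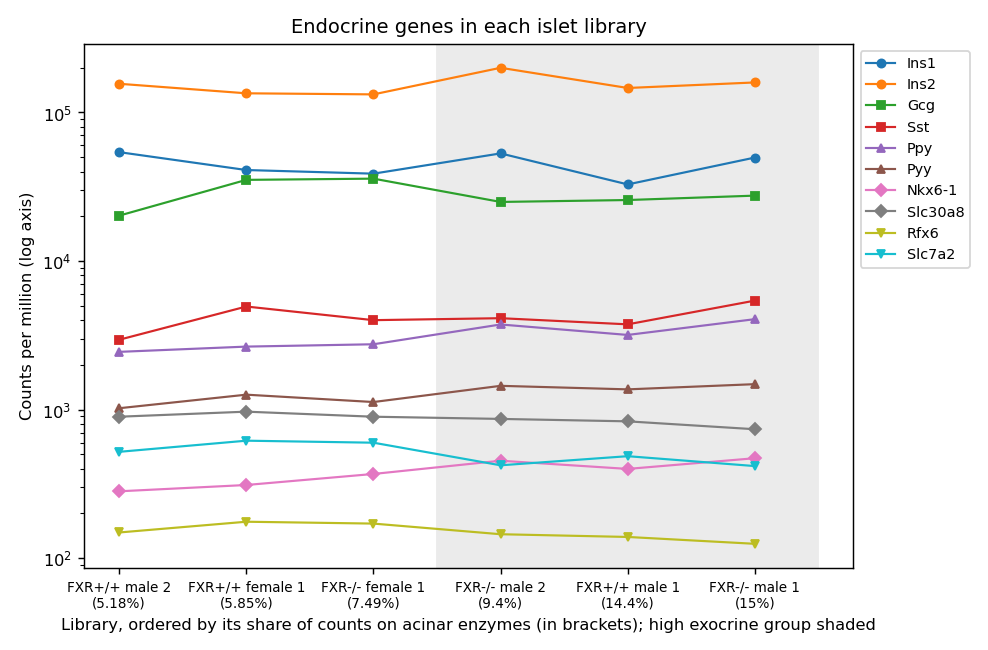
CPM (log axis) of 10 endocrine genes in the 6 libraries in the order of the acinar share, with the high exocrine libraries shaded; each line is 1 gene. The lines are nearly flat: Ins2 stays between 132377 and 199905 CPM, and Gcg is highest in the 2 females, at 35191 and 35866 CPM.

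Immediate early genes, which cells induce within minutes of a stimulus, and heat shock genes had the largest median of any list apart from the sex-linked genes. All 10 were higher on average, 5 of them apart and by at least 2-fold, and the median log2 difference was 1.83. *Jun* was at 48.5, 392 and 203 CPM in the low libraries and at 508, 836 and 1262 in the high ones. *Atf3*, a stress-induced repressor, was at 0.726, 32.7 and 10.8 CPM against 51, 151 and 262. *Fos* overlapped, at 30.7, 810 and 296 CPM against 706, 1216 and 1256.

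The order of these genes was not only that of the exocrine content. FXR+/+ male 2 was far below every other library, with a sum of 335 CPM over the list, while FXR+/+ female 1, also low in exocrine RNA, had 2765 CPM, close to the 2966 of the high library FXR-/- male 2. The 2 remaining high libraries had 5188 and 6591 CPM and FXR-/- female 1 had 1180. Among the 4 males the list median was 4.0, since the only low male is FXR+/+ male 2, and it was 4.47 with sex as a further term and 3.43 with a replicate block. The part of the acinar RNA, which moved with these genes, in their level was not tested.

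The inducible heat shock genes *Hspa1a* and *Hspa1b* had another order than the immediate early genes. *Hspa1a* was at 100, 88.1 and 81.2 CPM in the low libraries and at 372, 399 and 349 in the high ones, and *Hspa1b* at 64.4, 43.6 and 42.9 against 180, 199 and 144. Here FXR+/+ male 2 lay with the other low libraries, and each group was tight compared with the gap between them. The 2 genes are near-identical copies, and their counts may be split between them.

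**Figure D3:**
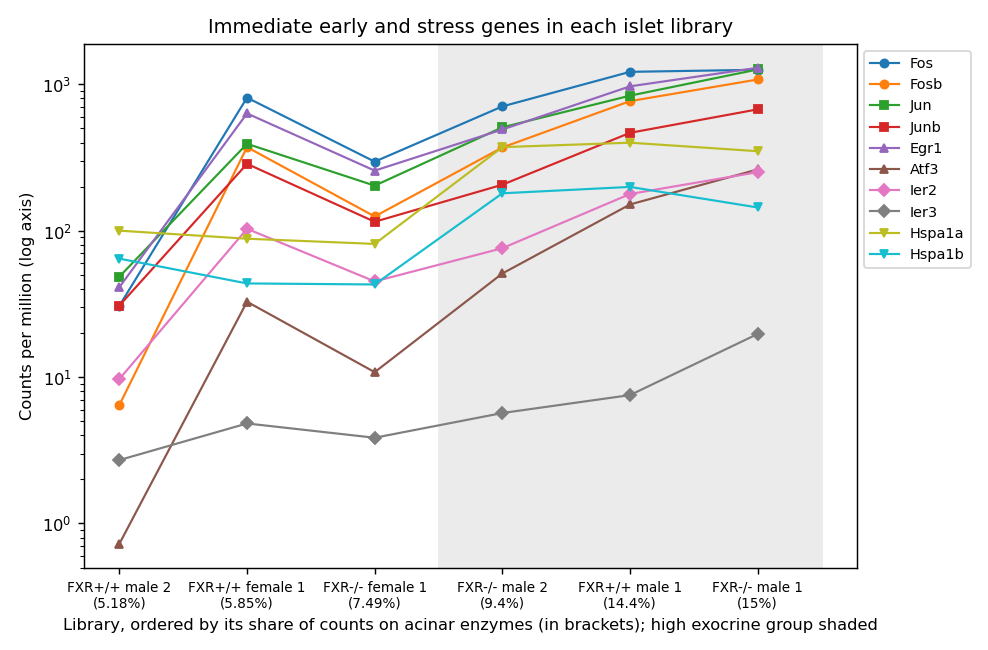
CPM (log axis) of 10 immediate early and stress genes in the 6 libraries in the order of the acinar share, with the high exocrine libraries shaded; each line is 1 gene. FXR+/+ male 2 is lowest for the immediate early genes (Fos 30.7 CPM), while Hspa1a and Hspa1b step up between the low and the high libraries (Hspa1a from 81.2 to 100 up to 349 to 399 CPM).

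Genes of the unfolded protein response, by which secretory cells adapt their endoplasmic reticulum, had a median of 0.39 with 4 of 9 apart and higher. The median was 0.68 without FXR+/+ male 1, 0.13 without FXR-/- female 1 and -0.03 with a replicate block. *Ddit3* (CHOP) was at 21.6, 28 and 29.7 CPM in the low libraries and at 33.5, 35.7 and 61.2 in the high ones, and *Atf4* at 219, 217 and 216 against 285, 289 and 278. The chaperone *Hspa5* (BiP) overlapped, at 1340, 1244 and 994 CPM against 1499, 1286 and 2095. The translocon and signal peptide genes are used by all secretory cells. Of these 1 of 11 was apart (*Ssr4*), near the 10.9% of all genes apart and higher, and the median was 0.13. That median had no stable direction, at 0.44 without FXR+/+ male 1, -0.17 without FXR-/- female 1 and -0.09 with sex as a further term.

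The lists of other cell types of the islet surroundings differed between the high and low libraries to unequal degrees. Of 8 stellate cell and fibroblast genes 3 were apart and higher (*Col1a1*, *Col3a1* and *Pdgfrb*), beside 10.9% of all genes, with a median of 0.79. The collagen *Col1a1* was at 3.31, 4.82 and 19.9 CPM in the low libraries and at 23.8, 29.6 and 26.5 in the high ones, so that FXR-/- female 1 was near the high libraries. The list median was 0.17 without FXR+/+ male 1 and 2.05 without FXR-/- female 1. Within the FXR-/- libraries it was 0.16 and within the FXR+/+ libraries 2.06. The summed level of the list was 150 to 226 CPM in the low and 240 to 296 CPM in the high libraries.

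Of 8 endothelial genes 3 were apart and higher (median 0.36), with *Pecam1* at 41.9, 44.4 and 57.3 CPM in the low libraries and at 62.1, 62.6 and 85.5 in the high ones. The summed endothelial levels overlapped, at 502 to 627 CPM in the low and 600 to 998 CPM in the high libraries. The endothelial median was 0.69 in males alone and 0.01 with a replicate block. Macrophage genes had 2 of 8 apart (median 0.24, summed level 112 to 153 CPM against 150 to 184). Of all genes 10.9% were apart and higher and 11.7% apart and lower. Counts of 2 of 8, or of 0 in the small lists that follow, are therefore not read as results about these cells. Lymphocyte genes (0 of 4 apart, summed level 20.3 to 31.3 against 15.7 to 36.6 CPM) and Schwann cell genes (0 of 5 apart, summed level 11.1 to 19.6 against 16.6 to 18.4 CPM) overlapped, as did *Alas2*, the only erythroid gene tested, and the 2 muscle genes. No adipocyte gene passed the filter on low counts. The part of these cell types in the differences above was not tested.

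Outside the lists and the sex-linked genes, the 12 genes with the largest difference, at a mean of at least 5 CPM, held further immediate early or stress-induced genes: *Csrnp1*, *Socs3*, *Dusp1*, *Gem*, *Klf6*, *Maff*, *Tnfaip3* and *Sik1*. The phosphatase *Dusp1* was at 21.6, 216 and 94.9 CPM in the low libraries and at 222, 415 and 587 in the high ones. *Socs3*, a feedback inhibitor of cytokine signalling, was at 9.56, 40.5 and 21.5 CPM against 57.5, 77 and 151. In both FXR+/+ male 2 was lowest, as for *Fos* and *Jun*.

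The gene with the largest difference was *Gm5771*, a trypsinogen-like gene of the same chromosome 6 cluster (GRCm38, chr6:41392356-41397256), at 41.9, 6.56 and 16.2 CPM in the low libraries and at 290, 102 and 246 in the high ones (log2 3.04, but 1.31 with sex as a further term and 1.51 with a replicate block). The kallikrein gene *Klk1b5* (log2 1.49), the immunoglobulin joining chain *Jchain* (1.96), a product of plasma cells, and *Gm13889* (1.47) completed the 12. *Jchain* was at 2.71, 1.15 and 3.2 CPM against 6.86, 16.2 and 3.63, so that FXR+/+ male 1 was far above the rest and FXR-/- male 1 close to the low libraries.

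On the lower side the differences were smaller. *Enpp2* (autotaxin), which makes lysophosphatidic acid, was at 192, 341 and 230 CPM in the low libraries and at 133, 127 and 109 in the high ones (log2 difference -0.998, but -0.45 with sex as a further term and -0.13 with a replicate block). The zinc finger gene *Plagl1* was at 17, 19.5 and 13 CPM against 8.71, 7.19 and 7.99. The interferon-induced GTPases *Igtp* and *Irgm2* and the interferon-induced *Oasl2* were also among the 12, with *Igtp* at 16.7, 9.89 and 20.2 CPM against 8.96, 9.12 and 9.1. The high libraries were level for *Igtp* and the low ones were not, with FXR-/- female 1 the highest.

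The X-linked genes *Kdm6a*, *Jpx* and *Zxda*, which were on no list, were among the 12 as well. *Kdm6a* was at 34.4, 64 and 57.7 CPM in the low libraries and at 28, 32.8 and 29.1 in the high ones, which is the order of the sexes, since FXR+/+ male 2 lay next to the other males. *Ppp2r2c*, *Kbtbd8*, *Snhg11* and *Xdh* were the others, with log2 differences of -0.80 to -0.73. Of genes at a mean of at least 5 CPM, 1 was apart and lower by 2-fold or more, the X inactivation transcript *Xist*, which again divides the sexes.

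The genes outside the enzyme list whose level was most like the summed acinar enzymes over the 6 libraries came mostly from the acinar and REG lists, with 7 of 10. *Pdia2*, a disulfide isomerase of the pancreas, had the highest Pearson correlation of log2 CPM (0.998), at 124, 129 and 163 CPM in the low libraries and at 219, 339 and 384 in the high ones. Next were *Tmed6* (0.996), *2210010C04Rik* (0.996), *Adnp* (0.995), *Dmbt1* (0.995), *Sparcl1* (0.994), *Tff2* (0.993), *Cckar*, *Reg1* and *Spink1* (each 0.99). *Adnp* and *Sparcl1*, which are on no list, differed by less, with log2 differences of 0.45 and 0.35, against 1.12 for *2210010C04Rik*, itself a trypsinogen gene of chromosome 6 that the enzyme list did not hold. The 6 points share libraries and the genes were picked for this likeness out of all genes, so no p is given.

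The genotype comparison was then read with the exocrine group in the fit. With terms for exocrine group and genotype, 0 of 14619 genes (0%) passed an adjusted p of 0.05 in edgeR's quasi-likelihood test (lowest adjusted p 0.12), and 1147 had an unadjusted p under 0.05. Relative to FXR+/+ islets, 704 of them (4.82%) were up in FXR-/- islets and 443 (3.03%) down. DESeq2 with the same terms called 90 of the 14619 genes. Of these, 8 were on the lists, which name 220 symbols (*Nr1h4*, *Cox6a2*, *Vgf*, *Mafa*, *Isl1*, *Emcn*, *Spp1* and the enzyme *Amy2a5*). Where the shared replicate numbers entered as a block instead of the exocrine group, edgeR called 23 genes (0.157%), 20 higher and 3 lower. Among the listed genes these were *Cox6a2*, *Nr1h4* and *Vgf*.

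The enzymes define the exocrine group, so their genotype difference with that group in the fit is set by the choice of libraries and is not read here. With genotype alone in the fit, the median log2 difference of the 27 enzymes, FXR-/- minus FXR+/+, was 0.45, with sex in the fit it was 0.44, and with the replicate block 0.54. No enzyme passed the edgeR test with any of these 3 terms. *Prss2* differed by 0.43 with genotype alone (edgeR, adjusted p = 0.778) and *Cpa1* by 0.49 (adjusted p = 0.735).

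The 3 listed genes called with the block had nearly the same difference with the exocrine group in the fit. *Nr1h4* had a log2 difference of -1.12 ± 0.16 with the exocrine group (edgeR, adjusted p = 0.287) and of -1.08 ± 0.14 with the block (adjusted p = 0.0441). *Cox6a2*, a subunit of cytochrome c oxidase, was at 40.3, 30.9 and 58.7 CPM in the low libraries and at 99.9, 33 and 69.8 in the high ones. All 3 FXR-/- libraries lay above the 3 FXR+/+ libraries, with a log2 difference of 1.04 ± 0.21 with the exocrine group (edgeR, adjusted p = 0.33) and of 1.11 ± 0.10 with the block (adjusted p = 0.0129). *Vgf*, a peptide precursor of endocrine granules, differed by 0.74 ± 0.12 (adjusted p = 0.293) and by 0.88 ± 0.11 (adjusted p = 0.0441). DESeq2 with the exocrine group called all 3, with adjusted p of 6.79e-05 for *Nr1h4*, 0.000432 for *Cox6a2* and 0.0014 for *Vgf*. The beta cell factor *Mafa*, also called by DESeq2 (adjusted p = 3.2e-07), had a log2 difference of 0.55 ± 0.09 in edgeR (adjusted p = 0.287). These genes were not apart between the high and low exocrine libraries.

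Sex was tested with a term for genotype, and 8 genes (0.0547%) passed in edgeR, 6 higher and 2 lower in males. They were the Y-linked *Ddx3y*, *Eif2s3y*, *Kdm5d* and *Uty*, the X-linked *Xist* and *Kdm6a*, and 2 autosomal genes, *Gm5771* and *Mki67*. *Gm5771* was at 6.56 and 16.2 CPM in the females and at 41.9, 102, 246 and 290 CPM in the males, a log2 difference, male minus female, of 3.75 ± 0.39 (edgeR, adjusted p = 0.0412). The proliferation marker *Mki67* was at 2.51 and 2.86 CPM in females and at 7.83 to 9.47 CPM in males, 1.70 ± 0.18 (adjusted p = 0.0426). For *Gm5771* even FXR+/+ male 2, the library poorest in acinar RNA, lay above both females. Both calls rest on the whole set of libraries: that of *Gm5771* was lost without any of 5 of the 6 libraries, FXR+/+ male 2 excepted, with an adjusted p of 0.0605 to 0.932 in edgeR. That of *Mki67* was lost without the same 5, with an adjusted p of 0.076 to 0.932, and with the exocrine group as a further term (edgeR, adjusted p = 0.224), where *Gm5771* passed (0.000452). With at least 10 counts in every library both were lost (edgeR, adjusted p = 0.109), as was *Gm5771* with no other term (0.511) and *Mki67* on library size alone (0.0535). *Kdm6a* was lost with the exocrine group as a further term (edgeR, adjusted p = 0.149) and without any of 4 libraries, FXR+/+ female 1, FXR+/+ male 1, FXR-/- female 1 and FXR-/- male 2 (0.344, 0.0663, 0.622 and 0.0954). *Mki67* is named here because it passed the test, and was on no list.

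The other trypsinogens of the cluster had the same direction without passing the edgeR test over the 6 libraries. *Prss3* was higher in males by 2.71 ± 0.42 on the log2 scale (edgeR, adjusted p = 0.244), and *Prss1* by 2.75 ± 0.49 (adjusted p = 0.329), with each male above each female. DESeq2 called both (adjusted p = 0.000399 for *Prss3*), and edgeR called *Prss3* without FXR+/+ male 2 (adjusted p = 0.000119). *Prss2*, in the same cluster (chr6:41521776-41525079), differed by 0.87 ± 0.52 (adjusted p = 0.704), and FXR+/+ male 2 was its lowest library. The enzyme list as a whole had a median sex difference of 0.86, and of -0.28 with the exocrine group as a further term.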

How the data were processed

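RNA was measured in 6 islet libraries. The authors deposited whole-number counts per gene, not normalized, for 19342 genes listed by NCBI gene identifier (31 by a transcript identifier), and counts per exon for 139263 exons, of which 86.7% match an exon of GENCODE vM21 (GRCm38). The submitters' processing notes name HISAT; its settings, how reads were assigned to genes and whether strand was used are not given in the sources used here. The deposited tables of the authors' own DESeq comparison hold fold changes and p-values and were not used. Low counts limit precision for genes near 1 CPM, since 1 CPM is about 20 to 30 counts in these libraries.

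Genes were filtered with filterByExpr by exocrine group (minimum count 10, minimum total 15), which left 14619, and scaled with TMM in edgeR 4.0.16 (R 4.3.3). CPM values are counts scaled to the normalized library size. The log2 difference between high and low libraries came from glmQLFit with terms for genotype and exocrine group and has no p-value. Medians given within a genotype or among the males are from differences of mean log2 CPM (prior count 2). Those for a genotype alone or for males alone come from a new fit on that subset, so the values can differ slightly. Genotype (with the exocrine group) and sex (with genotype) were tested with glmQLFTest, adjusted by Benjamini and Hochberg over all genes at 0.05, with 3 residual and 4.46 prior degrees of freedom, and SEs are from the F statistic. Shares were compared by exact permutation of library labels. The scripts were tested on simulated data. Promoter sequences and gene positions are those of RefSeq (GRCm38.p6), and 14596 of the 14619 tested genes matched.

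The groups and the 24 gene lists (220 symbols, of which 11 had no row and 14 were under the filter) were chosen with earlier results of these data known. Genes named are the members of these lists, the 12 with the largest and the 12 with the smallest difference outside them and the sex-linked genes (mean of at least 5 CPM, groups apart), listed genes that passed the edgeR test, and the 10 genes outside the enzyme list most correlated with the acinar level. Genes outside this rule are named as such. The FXR and target list had 4 genes tested (*Nr1h4*, *Nr0b2*, *Abcb11* and *Cox6a2*), none of them apart.

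The labels number the libraries of each genotype alike. Deviations from the genotype means correlated at 0.361, 0.367 and 0.323 across genes in same-numbered pairs and at 0.02 or below in other pairs. The deviations cancel within each genotype, so a high value in any pair lowers the others, and same-numbered libraries share their sex. These correlations therefore cannot show that the numbers mark pairs. The numbers were taken as pairs for the block, and the calls made with it depend on that choice. What a number marks is not stated, and the female pair was low in acinar RNA in both genotypes and the male 1 pair high in both. The alternatives tried were DESeq2 1.42.0, other scalings, filters and terms, subsets of libraries, exon counts, a replicate block and each library left out.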

Additional observations from a re-analysis of the deposited data

How the results depend on the processing

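The acinar share kept its direction under every alternative run (8 main enzymes alone, granule proteins added, exon counts, or the insulin and glucagon genes left out of the total), and the same 3 libraries were always highest. All of these alternatives still used enzymes that chose the libraries. Taken as replicate pairs, the genotype difference in the share is by construction the same 2.15 points (exact paired permutation test, p = 0.25). The count of genes apart by at least 2-fold, 189 higher and 26 lower, was 98 and 56 on library size alone, 352 and 138 with no filter, and 7 lower with at least 10 counts in every library. In smaller sets fewer libraries have to stand apart: the counts were 1072 and 162 in males alone, 820 and 150 in FXR+/+ alone, and 356 and 315 in FXR-/- alone. Leaving out each library gave 177 to 519 higher and 43 to 100 lower, with 519 without FXR-/- female 1, 389 without FXR-/- male 2, and 100 lower without FXR+/+ male 1. Without FXR+/+ female 1, FXR+/+ male 2, FXR-/- male 1 and FXR-/- male 2, the lower count was 49, 73, 54 and 77.

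The median of the beta cell genes (0.06) was -0.12 on library size alone, -0.028 with sex as a further term, -0.035 in FXR+/+ alone, and -0.033 (without FXR-/- female 1) to 0.095 with each library left out. That of the alpha cell genes (-0.12) was 0.42 with sex as a further term and 0.47 in males alone, and -0.32 to 0.06 with each library left out. That of the immediate early and stress genes (1.83) was 4.47 with sex as a further term, 4.14 in males alone and 1.53 to 2.80 with each library left out. The acinar enzyme median was 0.93 to 1.43 with each library left out.

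With the replicate block beside genotype and the exocrine group, 107 genes were apart and higher by 2-fold, and the medians were 0.77 for acinar enzymes, 0.26 for alpha cell genes and 3.43 for immediate early genes. Under this block the unfolded protein response median (-0.028), *Slc30a8* (0.10), *Rfx6* (0.056) and the sex-linked list (-0.084) changed sign. The sex-linked list (2.73) also did with sex as a further term (-0.24) and in males alone (-0.36), as did *Ins2* with sex as a further term (-2e-04) and the REG median in FXR-/- alone (-0.13) and without FXR+/+ male 1 (-0.14; up to 1.39 without FXR-/- female 1).

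The genotype count of 0 became 90 with DESeq2, 23 with the replicate block in place of the exocrine group, 50 with both, and 0 to 8 with each library left out (8 without FXR+/+ female 1). Small enzyme differences by genotype, in a fit adjusted for a group that the enzymes define, changed sign: *Pnlip* (0.04) was -0.0037 on library size alone, -0.048 with the acinar share as a number, and -0.02, -0.22 and -0.08 without FXR+/+ male 2, FXR-/- female 1 and FXR-/- male 1. *Prss3* was -0.20 without FXR+/+ male 1 and at most 1.02, without FXR-/- female 1. *Ctrb1*, *Prss2* and *Cpa1* were -0.25, -0.11 and -0.10 without FXR-/- female 1, and *Prss2* was -0.05 without FXR-/- male 1, while without FXR+/+ male 1 they were at their highest, 0.56, 0.36 and 0.56, as was *Pnlip* at 0.28. The sex count of 8 became 83 with DESeq2, 1 with at least 10 counts in every library, which removes the Y-linked genes and *Xist* and under which *Gm5771* and *Mki67* lost their calls, and 5 to 14 with each library left out (14 without FXR+/+ male 2, 5 without FXR+/+ female 1, FXR+/+ male 1 or FXR-/- female 1). *Ctrb1*, higher in males by 0.90, was -0.40 with the exocrine group as a further term. Other causes of these shifts were not tested.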

Other observations

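Some genes divided the libraries in another way than genotype, sex or exocrine content, and they are named here because their values were seen. The pseudogene *H2-Ea-ps* had 147, 455 and 153 counts in FXR+/+ male 2, FXR-/- female 1 and FXR-/- male 2, and 1, 1 and 0 in FXR+/+ female 1, FXR+/+ male 1 and FXR-/- male 1. *Pianp* had 587, 875 and 590 counts in the former 3 libraries and 39, 25 and 26 in the latter 3, and *6330403K07Rik* had 1265, 1206 and 959 against 241, 207 and 130. In the exon counts *Pianp* had 404, 585 and 400 against 29, 17 and 17. FXR+/+ male 2 and FXR-/- female 1, the libraries in which *Ctrc* and *Amy2b* were highest, are 2 of these 3. The exocrine share was low in FXR+/+ male 2 and FXR-/- female 1 and high in FXR-/- male 2, so the division crosses that of the exocrine content.

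A further gene of the trypsinogen cluster, *Gm10334*, had 9 and 22 counts in the females and 65 to 144 in the males, the order of *Gm5771*, *Prss3* and *Prss1*.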
